A study of Mus musculus with 12 samples.

Results

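Mitochondrial ribosomal protein genes were followed in primary mouse embryonic fibroblasts (MEFs) with and without the long noncoding RNA lincRNA-p21, before and after DNA damage. They were taken as every row name of the 2 deposited tables in which Mrpl or Mrps is followed by a digit. There were 75 such genes of 11481 listed in either table, 46 named for the large subunit (Mrpl) and 29 named for the small subunit (Mrps), and all 75 stood in both tables. The rule used names alone and no measured value. Names do not always follow the particle: Mrps18a and Mrps30 are known as proteins of the large subunit, and Mrps36 is now assigned to the 2-oxoglutarate dehydrogenase complex.

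There were 4 groups of 3 libraries each. KO doxorubicin cells were lincRNA-p21-/- and received doxorubicin, WT doxorubicin cells were lincRNA-p21+/+ and received it too, and KO mock and WT mock cells of the same genotypes were mock treated. The dose is stated as 0.5 mM for 24 h, a unit that may be wrong because micromolar amounts are the norm. All groups shared a hybrid 129/B6 background and were grown as primary cultures. The series' design text calls the libraries biological triplicates, while the labels do not say whether a replicate number marks an embryo, a culture or a day, so p-values measure the spread between these libraries. LincRNA-p21 itself was not analysed here, so the knockout rests on its label alone. Doxorubicin, an anthracycline, breaks DNA and thereby activates p53, and lincRNA-p21 is a p53-induced RNA transcribed next to Cdkn1a, the gene of the cell cycle inhibitor p21.

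The mitochondrial ribosome, or mitoribosome, translates the few messenger RNAs of the mitochondrial genome, which encode core subunits of the respiratory chain and of ATP synthase. Its ribosomal RNAs come from mitochondrial DNA, whereas all of its proteins are encoded in the nucleus, made in the cytosol and imported. Many of these proteins have a bacterial counterpart, and others were added during the evolution of mitochondria. In mammals the nuclear genes of mitochondrial proteins often carry promoter motifs of the factors NRF1, GABP (an ETS family factor) and YY1.

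Values are CPM, a gene's reads scaled to the total of its library. The totals used for scaling ran from 14327048 to 20511907 reads, and listed genes held 99.19% to 99.64% of them. The deposited data are marked noYX, so these totals and the shares of all genes may leave out genes of the X and Y chromosomes. The lowest value of any of the 75 genes was 3.01 CPM, which rested on 54 reads. Listed genes had over 2 CPM in each WT library, a minimum that KO libraries did not share: 313 genes fell to it or under it in some KO library after doxorubicin and 164 in mock. None of the 75 did. Of 15 fibroblast markers 14 were listed, with a summed 32380 to 41830 CPM in KO doxorubicin, 35570 to 44190 CPM in WT doxorubicin, 53710 to 71480 CPM in KO mock and 62990 to 74930 CPM in WT mock libraries. Of the markers of other cell types, Epcam (epithelium), Pecam1 and Cdh5 (endothelium), Ptprc (blood), Adipoq (fat) and Myod1 (muscle) were not among the listed genes, but others were. The 1 listed blood marker of 7, Cd68, ran from 45.4 to 112.5 CPM in KO doxorubicin and 49.2 to 125.6 CPM in WT doxorubicin, against 2.42 to 58.3 CPM in KO mock and 2.84 to 29.3 CPM in WT mock. Endothelial markers summed to 29.8 to 38.9 CPM in KO doxorubicin and 34.1 to 38.4 CPM in WT doxorubicin (2 of 6 listed), against 2.26 to 7.68 CPM in KO mock and 3.70 to 4.47 CPM in WT mock (1 of 6 listed). Muscle markers (2 of 6 listed) summed to 22.6 to 52.6 CPM in KO doxorubicin and 44.6 to 204.1 CPM in WT doxorubicin, against 30.9 to 182.1 CPM in KO mock and 75.9 to 433.9 CPM in WT mock. Neural markers (3 of 6 listed) summed to 229.7 to 633.7 CPM and fat ones (1 or 2 of 5 listed) to 4.93 to 13.2 CPM over the 12 libraries. Of the 8 epithelial markers, Krt18 ran from 0.958 to 24.8 CPM over the 12 libraries. Cldn4, listed after doxorubicin only, ran from 1.38 to 13.7 CPM, and the other epithelial markers were not listed. The part of these cells in the results was not tested. CPM is a share of the library, so fewer cells of a type and less RNA per cell cannot be told apart, and a change in the rest of the RNA moves every share.

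The promoters of 5 genes on which the results below turn are shown because the genes moved in different directions. Mrpl28 and Mrpl39 had the largest increases with doxorubicin in WT, Mrps16 and Mrpl42 the largest decreases, and Mrpl9 the largest difference between KO and WT mock cells. Each is the RefSeq window from 250 bases before to 50 bases after the annotated start, printed 5′ to 3′ along the gene, on build GRCm38.p6. Capitals mark matches, on either strand, to the NRF1 motif, the ETS motif or the YY1 motif.
Mrpl39, chr16:84735195-84735494, minus strand: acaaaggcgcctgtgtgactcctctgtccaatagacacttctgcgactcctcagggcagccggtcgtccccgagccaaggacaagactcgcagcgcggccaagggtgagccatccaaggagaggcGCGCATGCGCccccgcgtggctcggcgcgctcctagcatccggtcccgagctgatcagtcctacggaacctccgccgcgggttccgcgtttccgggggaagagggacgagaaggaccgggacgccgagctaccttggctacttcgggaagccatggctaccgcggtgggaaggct
Mrpl28, chr17:26123253-26123552, plus strand: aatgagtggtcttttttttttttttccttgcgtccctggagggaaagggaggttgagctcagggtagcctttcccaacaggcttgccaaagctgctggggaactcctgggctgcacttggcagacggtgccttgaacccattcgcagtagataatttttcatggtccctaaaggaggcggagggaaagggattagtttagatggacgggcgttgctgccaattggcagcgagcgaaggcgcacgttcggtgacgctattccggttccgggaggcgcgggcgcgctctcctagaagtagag
Mrps16, chr14:20393441-20393740, minus strand: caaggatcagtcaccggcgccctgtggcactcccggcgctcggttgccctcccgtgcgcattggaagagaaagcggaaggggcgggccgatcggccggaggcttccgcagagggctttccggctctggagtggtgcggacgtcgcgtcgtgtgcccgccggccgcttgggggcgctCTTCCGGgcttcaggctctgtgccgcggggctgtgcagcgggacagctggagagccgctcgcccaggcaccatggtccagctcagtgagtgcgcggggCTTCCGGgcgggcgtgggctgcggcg
Mrpl42, chr10:95501900-95502199, minus strand: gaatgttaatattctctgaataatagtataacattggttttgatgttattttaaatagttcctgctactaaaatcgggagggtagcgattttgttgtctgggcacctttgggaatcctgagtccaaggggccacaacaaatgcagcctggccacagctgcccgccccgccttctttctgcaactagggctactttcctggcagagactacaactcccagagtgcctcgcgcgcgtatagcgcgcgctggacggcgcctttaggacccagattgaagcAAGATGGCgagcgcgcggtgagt
Mrpl9, chr3:94443086-94443385, plus strand: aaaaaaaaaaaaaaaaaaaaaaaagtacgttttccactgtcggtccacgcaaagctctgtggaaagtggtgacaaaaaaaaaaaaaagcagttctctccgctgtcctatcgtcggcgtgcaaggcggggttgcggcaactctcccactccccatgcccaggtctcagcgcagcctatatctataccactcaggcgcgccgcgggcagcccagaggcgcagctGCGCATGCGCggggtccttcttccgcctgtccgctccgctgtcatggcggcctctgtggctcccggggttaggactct
The Mrpl39 and Mrpl9 windows each hold the NRF1 motif, the Mrps16 window holds the ETS motif at 2 positions in its reverse form, and the Mrpl42 window holds the YY1 motif. None of the motifs searched is in the Mrpl28 window. A second RefSeq window of Mrps16 holds none either.

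RefSeq gave 72 promoter windows for 66 of the 75 genes. It gave none for Mrpl4, Mrpl13, Mrpl15, Mrpl19, Mrpl38, Mrpl54, Mrps28, Mrps34 and Mrps35. Motifs were searched as exact letters on both strands. The full NRF1 motif was in 4.17% of the windows of these genes, against 2.12% of the windows of genes in both tables and 0.971% of all windows. Its shorter part GCGCATGC, which every full match contains, was in 11.1% of the windows of these genes, 5.49% of those of genes in both tables and 2.71% of all windows. For the ETS motif CCGGAAG the shares were 31.9%, 18.6% and 8.86%, and for the YY1 motif AANATGGC 27.8%, 8.67% and 6.05%. The E-box CACGTG was in 9.72%, 10.4% and 7.15%. Windows of cytosolic ribosomal protein genes held the ETS motif in 39.7% and the YY1 motif in 20.6%, and those of oxidative phosphorylation genes in 23.0% and 24.3%, so higher shares than among genes of both tables were also found in these families. On the gene's own strand alone the ETS motif was in 16.7% of the windows of these genes, 10.5% for genes in both tables and 4.77% of all windows. The YY1 motif was there in 20.8%, 5.47% and 3.37%. Cytosolic ribosomal protein genes had own-strand shares of 28.6% for ETS and 6.35% for YY1, and oxidative phosphorylation genes 8.11% and 18.9%. The median G and C content was 58.2% in these windows and 61.7% in those of genes in both tables. These are descriptions of letters in the windows and not of bound factors.

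Of the 75 genes, 32 (42.7%) start within 1000 bases of a protein-coding gene on the other strand, with the starts facing away from each other or overlapping. That arrangement was found for 17.6% of 9943 protein-coding genes in both tables and 10.8% of 22028 annotated ones. The 75 genes lie on 17 chromosomes, with 10 on chromosome 11 and 8 on chromosome 17. In the annotation used, 40 of the 75 overlap another gene, 34 of them a gene on the opposite strand. The kit is stated to be stranded, but the counting setting is not given in the sources used here, so reads in such overlaps may be shared.

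Levels differed widely between genes of the same particle. Divided by coding length, WT mock levels ran from 12.4 ± 1.10 CPM per coding kb for Mrps31 to 220 ± 19.9 CPM per coding kb for Mrpl33 (SD, n = 3 each), a ratio of 17.7, with a median of 44.6 CPM per coding kb. After Mrpl33, a short large-subunit protein with a bacterial counterpart, came Mrpl20 at 128 ± 11.8 CPM per coding kb and Mrpl52 at 122 ± 7.19 CPM per coding kb. Those neighbours differed by less than their SD. At the low end Mrpl44, related to ribonuclease III, had 14.6 ± 1.64 CPM per coding kb and Mrps35 had 16.7 ± 1.10. Untranslated sequence is not in the length, which raises the values of genes with short coding regions such as Mrpl33.

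The summed level of the 75 genes was 2698, 2908 and 2551 CPM in KO doxorubicin, 2644, 2418 and 2493 CPM in WT doxorubicin, 2437, 2516 and 2289 CPM in KO mock and 2241, 2273 and 2221 CPM in WT mock libraries, in the order of replicates 1 to 3. In WT the doxorubicin libraries all lay above the mock libraries, and in KO they did too. Between genotypes, KO mock libraries all lay above WT mock libraries, while the ranges of KO doxorubicin and WT doxorubicin overlapped. The Mrpl sum divided by the Mrps sum was 2.05 ± 0.0551 in KO doxorubicin, 2.09 ± 0.128 in WT doxorubicin, 1.98 ± 0.0354 in KO mock and 1.98 ± 0.0324 in WT mock (SD, n = 3 each), so the sums for the subunits kept a similar proportion, with the highest ratio, 2.24, in WT doxorubicin replicate 3.

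**Figure D1:**
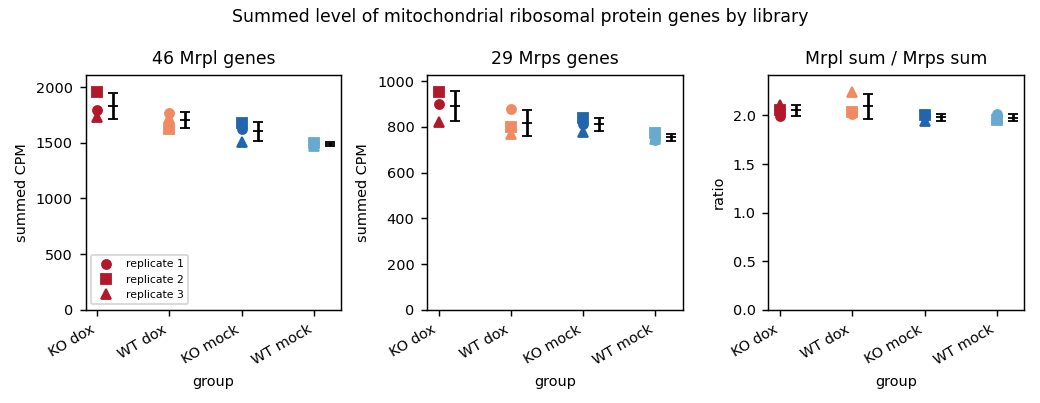
Summed CPM of the 46 Mrpl genes and of the 29 Mrps genes, and the ratio of both sums, in each library, by group, with black bars for the mean and SD of 3 libraries. The 3 WT mock libraries are the lowest in the Mrpl sum, and the ratio stays between 1.94 and 2.24 in the 12 libraries.

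After doxorubicin, single genes of the mitoribosome changed in both directions. In WT cells 17 of the 75 rose and 6 fell (limma, adjusted p under 0.05), beside 47.3% of 10292 genes that passed, 25.9% higher and 21.4% lower. In KO cells 15 rose and 2 fell, beside 34.5% of all genes, 19.9% higher and 14.6% lower. The 23 genes in WT and 17 in KO are thus a smaller share of the 75 than of all genes. With the replicate number as a block, 26 rose and 14 fell in WT (63.7% of all genes passed, 33.6% higher and 30.1% lower) and 23 rose and 7 fell in KO (53.7%, with 29.6% higher and 24.0% lower). The median log2 difference of the 75 was 0.14 in KO, against 0.035 over all genes, and 0.07 in WT, against 0.011 over all genes. The KO median was 0.06 without KO doxorubicin replicate 2 and 0.22 without KO doxorubicin replicate 3. The WT median was 0.014 without WT doxorubicin replicate 1, 0.037 without WT mock replicate 3 and 0.14 without WT doxorubicin replicate 3, and it was below 0 with quantile normalization (-0.027) and with median centring (-0.037). In KO every treated library was above every mock library in 29 of the 75 and below in 6, beside 27.1% and 21.5% of all genes (48.6% in either direction). In WT this held for 20 and 7 of the 75, beside 29.4% and 25.3% of all genes (54.8%). Centring each library on its median moved the WT median of all genes by -0.11, to -0.10. Of the 75, 10 then rose and 13 fell. Quantile normalization gave 10 that rose and 11 that fell, with a median of all genes of -0.069. The WT count of 23 was 15 without WT mock replicate 1 or without WT mock replicate 2, and 12 without WT doxorubicin replicate 3. The KO count of 17 was 11 without KO mock replicate 2, and 10 without KO mock replicate 3 or without KO doxorubicin replicate 2. Shares of all genes called are not given here for the normalized fits or those with a library left out.

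**Figure D2:**
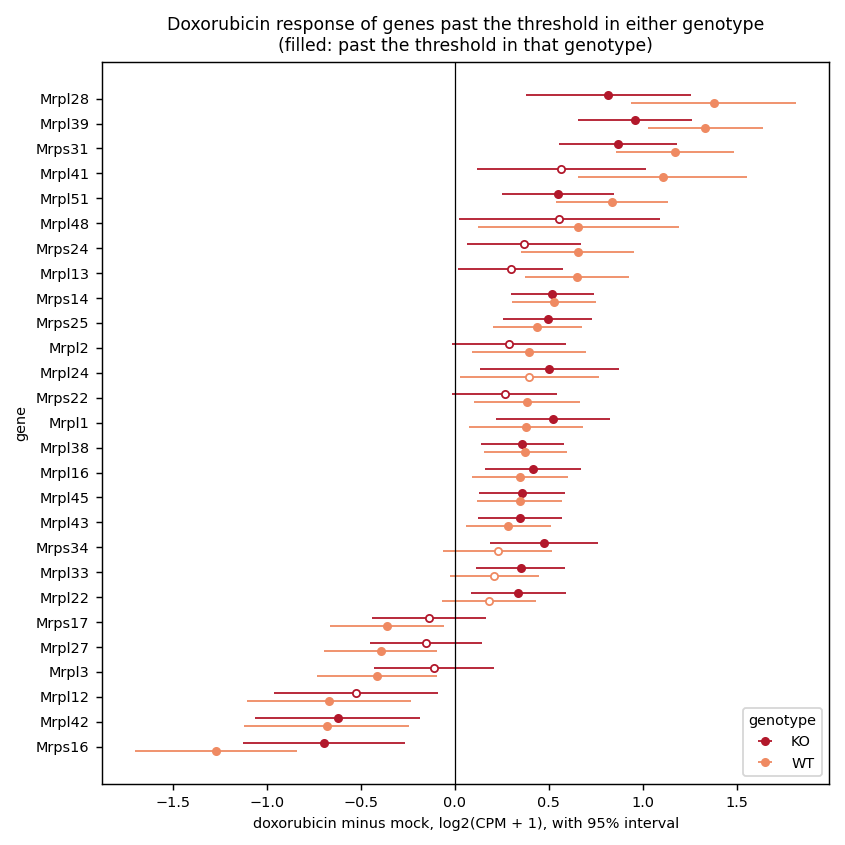
Doxorubicin minus mock on the log2(CPM + 1) scale with its 95% interval, in KO (dark) and WT (light), for each gene past the threshold in either genotype, with filled points where it passed. Mrpl28, Mrpl39 and Mrps31 are at the top and Mrps16 is at the bottom in WT, and every gene shown lies on the same side of 0 in both genotypes.

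Among large-subunit genes with a bacterial counterpart, Mrpl28 rose most. It had 58.9, 75.8 and 101 CPM in KO doxorubicin, against 43.7, 43.8 and 41.7 CPM in KO mock libraries. In WT it had 88.9, 97.6 and 145 CPM after doxorubicin, against 39.8, 42.1 and 41.0 CPM in mock. The treated libraries were all above the mock libraries in both genotypes, and replicate 3 was the highest of each treated group. The log2 difference was 0.82 (SE 0.20, adjusted p = 0.00924) in KO and 1.38 (SE 0.20, adjusted p = 0.000286) in WT (limma). Mrpl12, the stalk protein that contacts translation factors and has also been found to bind the mitochondrial RNA polymerase, fell in WT, with 39.0, 35.7 and 27.9 CPM after doxorubicin against 53.3, 60.6 and 50.1 CPM in mock. Its groups did not overlap there (log2 difference -0.67, limma adjusted p = 0.0166), but the call was lost without WT doxorubicin replicate 3 (adjusted p = 0.0697) or without WT mock replicate 2 (adjusted p = 0.0594). In KO it had 44.5, 54.3 and 33.1 CPM after doxorubicin, against 60.7, 76.7 and 52.2 CPM in mock. There the difference was -0.52 (adjusted p = 0.0610, and 0.00256 with the block), and the groups overlapped.

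Mitochondria-specific proteins of the large subunit include Mrpl39, Mrpl41, Mrpl42 and Mrpl51. Mrpl39, related to the editing domain of threonyl-tRNA synthetases, had 64.0, 81.3 and 88.7 CPM in KO doxorubicin, against 39.6, 40.0 and 38.4 CPM in KO mock. In WT its values were 82.4, 83.9 and 107 CPM after doxorubicin, against 33.0, 37.8 and 35.1 CPM in mock. All treated libraries lay above all mock libraries, with log2 differences of 0.96 (SE 0.14, limma adjusted p = 0.000560) in KO and 1.33 (SE 0.14, adjusted p = 4.60e-05) in WT. Mrpl41, whose human protein has been reported to bind BCL2, had 20.7, 23.9 and 30.9 CPM in KO doxorubicin, against 15.9, 17.6 and 15.8 CPM in KO mock. In WT it had 31.0, 27.1 and 48.7 CPM after doxorubicin, against 15.08, 15.38 and 15.97 CPM in mock. Its groups were separate in both genotypes. It rose in WT by 1.11 (limma adjusted p = 0.00125), and in KO the difference of 0.57 passed with the block only (adjusted p = 0.0522 without it and 0.0150 with it). Mrpl51 rose by 0.55 in KO (limma adjusted p = 0.00997) and by 0.84 in WT (adjusted p = 0.000578).

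Mrpl42 fell in both genotypes, as did Mrpl4, Mrpl12 and Mrpl50 in the large subunit with the block. It had 25.9, 28.4 and 15.9 CPM in KO doxorubicin, against 34.5, 41.9 and 31.1 CPM in KO mock. In WT it had 20.8, 22.1 and 17.4 CPM after doxorubicin, against 32.9, 34.4 and 30.8 CPM in mock. The groups were separate in each genotype, and replicate 3 was the lowest of all 4 groups. The log2 difference was -0.62 in KO (SE 0.20, limma adjusted p = 0.0316) and -0.68 in WT (SE 0.20, adjusted p = 0.0158). Without KO doxorubicin replicate 3 the KO difference was -0.38 (adjusted p = 0.108), without KO mock replicate 2 it was -0.51 (adjusted p = 0.111), and without KO mock replicate 1 it was -0.65 (adjusted p = 0.0668). The WT call was lost without WT doxorubicin replicate 3 (adjusted p = 0.0613).

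In the small subunit, Mrps31, a mitochondria-specific protein of its head, rose and Mrps16, a protein with a bacterial counterpart that is needed for assembly of the subunit, fell. Mrps31 had 26.9, 33.1 and 34.6 CPM in KO doxorubicin, against 17.5, 17.1 and 15.8 CPM in KO mock. In WT it had 32.9, 29.2 and 39.0 CPM after doxorubicin, against 12.9, 15.3 and 14.8 CPM in mock. Treated and mock libraries were separate in both genotypes. Mrps31 was no longer the lowest of the 75 per coding length after doxorubicin, a place taken by Mrps36 in KO and Mrpl23 in WT. The log2 difference of Mrps31 was 0.87 in KO (SE 0.14, limma adjusted p = 0.00117) and 1.17 in WT (SE 0.14, adjusted p = 0.000111).

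Mrps16 had 22.97, 18.04 and 17.99 CPM in KO doxorubicin, against 36.2, 29.8 and 31.1 CPM in KO mock. In WT it had 15.8, 9.02 and 10.1 CPM after doxorubicin, against 31.8, 24.9 and 29.8 CPM in mock. Every treated library lay below every mock library of its genotype. The log2 difference was -0.70 in KO (SE 0.20, limma adjusted p = 0.0183) and -1.27 in WT (SE 0.20, adjusted p = 0.000421). The KO call was lost without KO doxorubicin replicate 2 (adjusted p = 0.0600), KO doxorubicin replicate 3 (adjusted p = 0.0640) or KO mock replicate 1 (adjusted p = 0.0689).

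**Figure D3:**
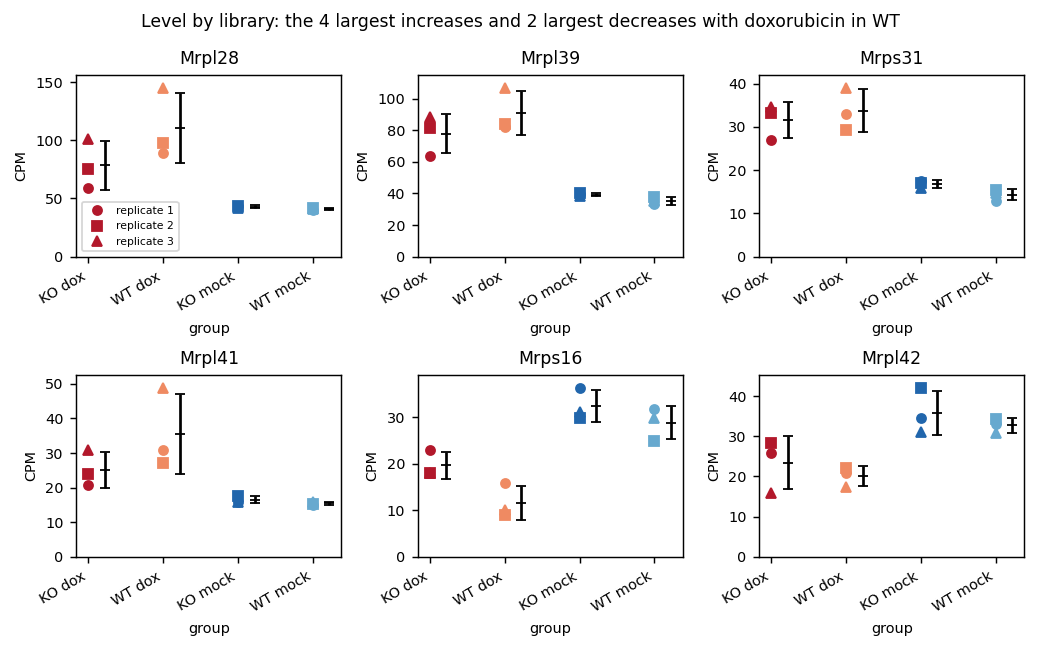
CPM in each library, by group, of the 4 genes with the largest increases and the 2 with the largest decreases in WT cells after doxorubicin, with black bars for the mean and SD of 3 libraries. For all 6 genes the treated libraries of each genotype are separate from its mock libraries.

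The other genes that rose in both genotypes were Mrps14, with 0.52 in KO and 0.53 in WT, Mrps25, with 0.49 in KO and 0.44 in WT, and Mrpl1, Mrpl16, Mrpl38, Mrpl43 and Mrpl45, with log2 differences of 0.28 to 0.53. Mrpl1 forms the mobile L1 stalk, Mrpl16 lies near the peptidyl transferase centre, Mrpl38 belongs to the central protuberance and Mrpl45 ties the ribosome to the inner membrane. Genes that passed in WT were Mrpl48 (0.66), Mrps24 (0.65), which lines the messenger RNA entry channel, Mrpl13 (0.65), Mrpl2 (0.40) and Mrps22 (0.38) among those higher, and Mrpl3 (-0.41), Mrpl27 (-0.39) and Mrps17 (-0.36) among those lower. None of these 8 passed in KO, although with the block Mrpl2, Mrpl48 and Mrps24 did. Mrpl24 (0.50), Mrps34 (0.48), Mrpl33 (0.35) and Mrpl22 (0.34) rose in KO and did not pass in WT, where with the block Mrpl24, Mrpl33 and Mrps34 did. Of the lists of called genes, 11 higher genes were shared, 73.3% of those called in KO and 64.7% of those called in WT. The 2 lower genes in KO were both among the 6 in WT. With the block 20 higher genes were shared (87.0% of those in KO and 76.9% in WT), and 7 lower genes, all 7 of those in KO and 7 of the 14 in WT. Several of the smaller calls did not hold when single libraries were left out of the 12. In WT the call was lost for 4 of these left-out libraries for Mrpl27, 5 for Mrpl3, 7 for Mrpl48 and 11 for Mrps17, with adjusted p-values of 0.0520 to 0.179. In KO it was lost for 1 for Mrpl1, 2 for Mrpl16, 3 for Mrps34 and 5 for Mrpl24, with adjusted p-values of 0.0516 to 0.133. The WT call of Mrpl48 and the KO call of Mrpl24 were also lost with quantile normalization and with median centring. Calls of Mrpl2, Mrpl22, Mrpl33, Mrpl38, Mrpl43, Mrpl45 and Mrps22 were not followed through these alternatives, and those of Mrpl1 and Mrpl16 in KO only.

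**Figure D4:**
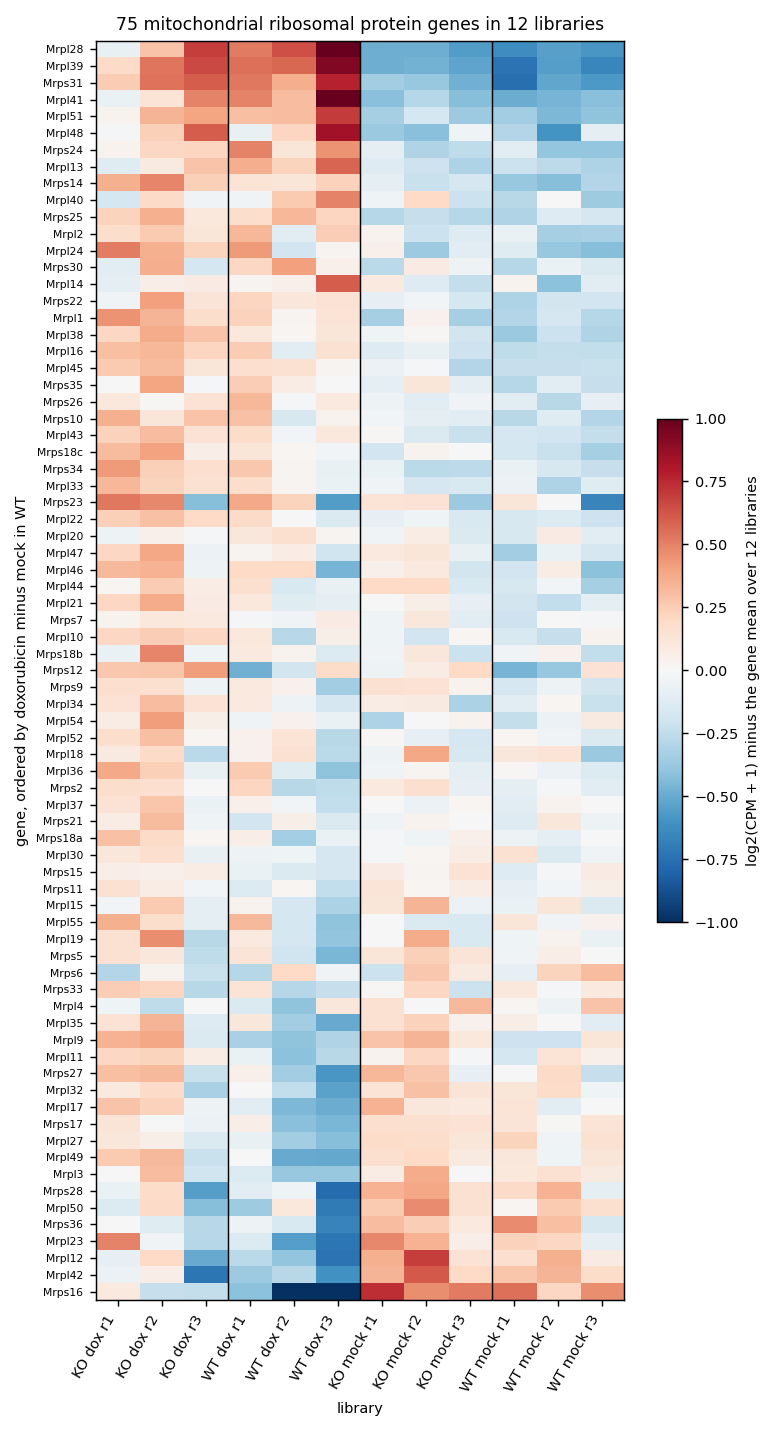
Level of each of the 75 genes in the 12 libraries as log2(CPM + 1) minus the gene's mean over all libraries, with colours limited to -1 and 1 and genes ordered by doxorubicin minus mock in WT. Doxorubicin libraries lie above the mock libraries of their genotype in the rows at the top (Mrpl28, Mrpl39, Mrps31, Mrpl41) and below them in the rows of Mrps16 and Mrpl42 at the bottom.

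By class, genes moved in both directions, beside 19.9% higher and 14.6% lower over all genes in KO and 25.9% higher and 21.4% lower in WT. Of 18 mitochondria-specific large-subunit genes, a list that also holds Mrpl57, 6 rose and 1 fell in KO (median log2 difference 0.26) and 7 rose and 1 fell in WT (median 0.20). Of 29 large-subunit genes with a bacterial counterpart 6 rose and 0 fell in KO (median 0.09) and 5 rose and 3 fell in WT (median 0.02). Among genes with Mrps names, 12 were listed as mitochondria-specific. That list also holds Mrps30, Mrps36 and Mrps28, which is counted there although it resembles a bacterial ribosomal protein. Of the 12, 3 rose and 0 fell in either genotype (median 0.15 in KO and 0.26 in WT). With the block 3 rose and 2 fell in KO, and 7 rose and 2 fell in WT. The 2 that fell were Mrps28 and Mrps36 in both genotypes. Of 17 with a bacterial counterpart, Mrps18a among them, 1 rose and 1 fell in KO (median 0.09) and 2 rose and 2 fell in WT (median -0.03). Over all 10292 genes the medians were 0.04 in KO and 0.01 in WT. Of 7 genes at the rim of the polypeptide exit tunnel, 4 rose in KO and 2 rose in WT, and with the block 4 rose in KO, while 3 rose and 2, Mrpl17 and Mrpl23, fell in WT. Of 6 neighbours of the peptidyl transferase centre, 1 rose in KO, and 3 rose and 2 fell in WT.

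The S18 paralogues are 3 genes that descend from a single bacterial gene and whose proteins sit at different places of the ribosome. Mrps18c, with 26.2, 27.8 and 21.8 CPM in KO doxorubicin against 18.2, 21.4 and 20.8 CPM in KO mock, and 22.7, 21.1 and 20.4 CPM in WT doxorubicin against 18.3, 17.7 and 16.3 CPM in WT mock, passed with the block in KO (log2 difference 0.31, limma adjusted p = 0.0342, and 0.0784 without it) and in WT (0.28, adjusted p = 0.0453, and 0.0911 without it). Its treated and mock libraries were separate in both genotypes. Mrps18a had 28.9 to 35.2 CPM in KO doxorubicin and 27.7 to 29.5 CPM in KO mock, and 22.3 to 29.9 CPM in WT doxorubicin and 26.7 to 28.6 CPM in WT mock. It differed by 0.17 in KO (95% interval -0.11 to 0.45) and by -0.07 in WT (-0.35 to 0.21). Mrps18b, with 35.3 to 54.9 CPM after doxorubicin and 32.7 to 42.2 CPM in mock over both genotypes, differed by 0.17 in KO (-0.19 to 0.53) and by 0.08 in WT (-0.28 to 0.44). Neither passed in either genotype, with or without the block.

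Treated cells also differed from mock cells in genes of growth state. Of 6 genes of proliferating cells (Mki67, Top2a, Ccnb1, Cdk1, Mcm7 and Pcna), 5 fell in KO with a median log2 difference of -2.47 for the 6, and 3 fell and 1 rose in WT with a median of -1.44. The part of growth state in the results for mitochondrial ribosomal protein genes was not tested. Of the families most like them, 72 cytosolic ribosomal protein genes had 2 that rose and 14 that fell in KO (median -0.16) and 2 that rose and 28 that fell in WT (median -0.25). Of 79 oxidative phosphorylation genes 29 rose and 1 fell in KO (median 0.24), and 28 rose and 9 fell in WT (median 0.14). Mitochondrial ribosomal protein genes thus lay between these families in both genotypes by median, and no difference between families was tested.

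Genes with divergent neighbours did not move only with them. Of 32 neighbours 28 were in both tables. By sign alone, the gene and its neighbour moved the same way in 17 of these 28 in WT and 18 in KO. Mrpl46 and Mrps11 are each other's neighbour, so that pair is counted from both sides. No such share for other divergent pairs is given here. In WT 6 of those 28 mitochondrial ribosomal protein genes passed, beside 47.3% of all genes. Of the 6, 5 passed together with the neighbour, and 3 of these moved the same way. In KO 3 passed, beside 34.5% of all genes, all 3 with the neighbour, and 2 of them moved the same way. No link to neighbours was tested. Mrpl43 rose beside Twnk, the mitochondrial DNA helicase gene, which rose by 0.58 in KO and 1.14 in WT, but the genes overlap. Mrpl51 rose while Ncapd2, a condensin gene whose start lies 100 bases away with no overlap, fell by 2.40 in KO (limma adjusted p = 0.000340) and by 1.21 in WT (adjusted p = 0.00913). Mrpl13 rose by 0.65 in WT while Mtbp, which overlaps it, fell by 1.74 on the log2 scale.

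Between genotypes, no mitochondrial ribosomal protein gene passed in mock cells. Of the 75, 68 lay above WT in KO mock cells and 7 below, with a median log2 difference of 0.10, while 66.6% of all genes lay above and the median of all genes was 0.058. The limma test called 0 of the 75 and 0.0% of 10648 genes (2 of the 75 had an unadjusted p under 0.05). With the block it called 0 of the 75 (12 with an unadjusted p under 0.05), beside 0.92% of all genes, 0.563% higher and 0.357% lower. The 75 genes' median was 0.025 with quantile normalization and 0.035 with median centring, where 51 and 52 of them lay above WT. Leaving out pair 3 from the blocked fit gave 6 calls, all higher in KO. For that fit, and for the counts by unadjusted p, no share of all genes is given here. In 12 genes every KO library was above every WT library, and in 0 below, beside 8.25% and 1.74% of all genes (9.98% in either direction). Within pairs, 44 of the 75 were above WT in all 3 and 2 below, beside 35.3% and 11.9% of all genes. All 6 genes of proliferating cells also lay above WT in KO mock cells, with a median of 0.40, and their part in the result was not tested.

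The largest difference in mock cells was that of Mrpl9, a large-subunit protein with a bacterial counterpart. It had 48.9, 50.9 and 43.2 CPM in KO mock, against 34.6, 34.4 and 43.5 CPM in WT mock, so the groups overlapped through replicate 3. The log2 difference was 0.34 (SE 0.13, limma adjusted p = 0.978, and 0.180 with the block). Mrps12, a protein of the decoding centre, had 18.5, 20.3 and 22.2 CPM in KO mock, against 13.6, 14.5 and 21.4 CPM in WT mock, also with overlap (log2 difference 0.31, adjusted p = 0.978, and 0.172 with the block). Mrps9 had 32.9, 32.7 and 30.3 CPM in KO mock, against 26.2, 28.5 and 25.9 CPM in WT mock, and its groups were separate (log2 difference 0.24, adjusted p = 0.978, and 0.125 with the block). Mrpl44 had 19.1, 19.2 and 14.8 CPM in KO mock, against 14.7, 16.2 and 12.9 CPM in WT mock (0.26). Mrpl47 had 20.6, 20.9 and 18.1 CPM in KO mock, against 14.9, 18.3 and 17.0 CPM in WT mock (0.24). Both overlapped between genotypes.

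After doxorubicin, calls between the genotypes depended on the pairing of libraries. Without the block limma called 0 of the 75 and 0.0% of 11125 genes (5 of the 75 had an unadjusted p under 0.05). The blocked fit gave 7 genes higher and 3 lower in KO, beside 25.3% of all genes, 11.8% higher and 13.6% lower. The 10 of 75 are thus a smaller share than among all genes. Leaving out pair 1, 2 or 3 left 1, 7 or 5 calls. A blocked fit over all 12 libraries, added after seeing the data, gave 6 calls, all higher. No share of all genes is given here for these further fits, so their counts stand without a background. Of the 75 genes 60 lay above WT and 15 below, with a median log2 difference of 0.19, while 54.2% of all genes lay above, with a median of 0.033. In 12 genes every KO library was above every WT library and in 0 below, beside 9.7% and 6.64% of all genes (16.3% in either direction). Within pairs, 49 of the 75 were above WT in all 3 and 8 below, beside 34.2% and 27.6% of all genes. The median was 0.12 without WT doxorubicin replicate 3, 0.13 without KO doxorubicin replicate 2 and 0.26 without KO doxorubicin replicate 3. Of the 6 genes of proliferating cells 5 lay below WT, with a median of -0.41. For all 6, WT doxorubicin replicate 2 was the highest of its group. In pair 1 KO was above WT for Top2a, Cdk1 and Pcna and below it for Mki67, Ccnb1 and Mcm7. The part of these genes in the result was not tested.

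Mrps16 was called in each blocked fit that left out a pair. With the values given above, its KO doxorubicin libraries all lay above its WT doxorubicin libraries. The log2 difference was 0.74 (SE 0.24, limma adjusted p = 0.443, and 0.0106 with the block), and within pairs it was 0.51, 0.93 and 0.78. In mock cells the difference was 0.17 with overlapping groups (adjusted p = 0.226 with the block).

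Of the other genes called higher in KO doxorubicin cells, Mrpl17 at the exit tunnel, Mrpl9, Mrpl11 at the base of the stalk and Mrps12 had separate groups. Mrpl17 had 71.0, 68.2 and 56.0 CPM in KO doxorubicin, against 53.9, 42.3 and 40.9 CPM in WT doxorubicin (log2 difference 0.50, limma adjusted p = 0.443, and 0.0116 with the block). Mrpl9 had 51.3, 52.5 and 36.0 CPM in KO doxorubicin, against 31.7, 30.1 and 32.2 CPM in WT doxorubicin (0.54, 0.443 and 0.0293). The pair difference of Mrpl9 was smaller in replicate 3 (0.16) than in the other pairs. Mrpl11 had 31.8, 32.1 and 28.8 CPM in KO doxorubicin, against 26.2, 20.3 and 22.4 CPM in WT doxorubicin (0.42, 0.443 and 0.0354), and it passed neither in a blocked fit that left out a pair nor in the blocked fit over all 12 libraries. Mrps12 had 23.3, 23.5 and 26.0 CPM in KO doxorubicin, against 13.5, 16.8 and 21.9 CPM in WT doxorubicin (0.48, 0.443 and 0.0360). Mrpl23 beside the exit tunnel and the mitochondria-specific Mrps27 overlapped between groups but were higher in KO in all 3 pairs. The blocked call by which they were chosen favours such agreement. Neither passed in a blocked fit that left out a pair, while both passed in the blocked fit over all 12 libraries. Mrpl23 had 11.5, 7.63 and 6.26 CPM in KO doxorubicin, against 7.01, 5.02 and 4.34 CPM in WT doxorubicin (0.53, 0.448 and 0.0298). Mrps27 had 29.5, 30.1 and 20.2 CPM in KO doxorubicin, against 24.6, 18.5 and 15.5 CPM in WT doxorubicin (0.43, 0.461 and 0.0409).

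The genes called lower in KO doxorubicin cells with the block were Mrpl28, Mrpl41 and Mrpl13. Their differences between doxorubicin and mock in WT, given above, use the same WT doxorubicin libraries. Mrpl13 had 52.0, 60.4 and 69.5 CPM in KO doxorubicin, against 73.4, 66.4 and 85.6 CPM in WT doxorubicin. Mrpl28 differed by -0.49 (limma adjusted p = 0.446, and 0.00869 with the block), Mrpl41 by -0.46 (0.463 and 0.0335) and Mrpl13 by -0.31 (0.448 and 0.0492). For each of them KO and WT libraries overlapped across replicate numbers, and KO was below WT in every pair. The blocked call that chose these genes favours such agreement between pairs. In the blocked fit over all 12 libraries none of the 3 passed.

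**Figure D5:**
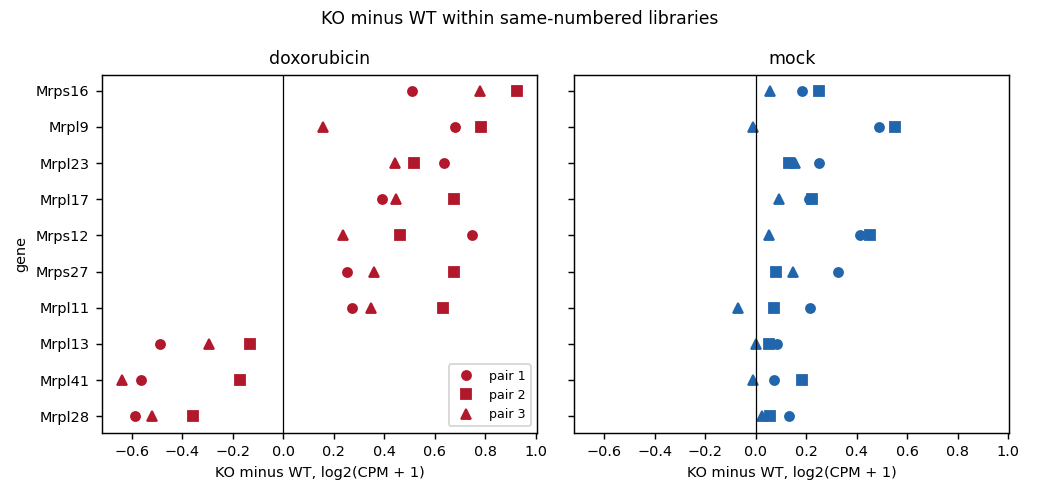
KO minus WT on the log2(CPM + 1) scale within each pair of same-numbered libraries, after doxorubicin (left) and in mock cells (right), for the 10 genes called with the replicate block after doxorubicin. After doxorubicin all 3 pairs lie on the same side of 0 for each gene, an agreement favoured by the blocked call that chose them. In mock cells the points of Mrpl28, Mrpl41 and Mrpl13 lie near 0 while those of Mrpl9 and Mrps12 are high in pairs 1 and 2.

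Whether the response to doxorubicin differed between genotypes was tested as an interaction. None of the 75 genes passed, and none of 10292 genes did (0.0%), without or with the block (limma; 0 of the 75 had an unadjusted p under 0.05 without the block and 6 with it). The largest interaction was that of Mrps16, at 0.57 (95% interval -0.04 to 1.18, adjusted p = 0.922, and 0.222 with the block), where a positive value means a higher doxorubicin minus mock difference in KO. It was -0.56 for Mrpl28 (-1.18 to 0.06), -0.54 for Mrpl41 (-1.18 to 0.09), -0.44 for Mrpl40 and 0.38 for Mrpl49. Mrpl40 had 22.01, 28.77 and 24.44 CPM in KO doxorubicin, against 24.3, 28.8 and 21.4 CPM in KO mock, and 24.4, 30.1 and 35.8 CPM in WT doxorubicin, against 20.5, 24.9 and 19.4 CPM in WT mock. Mrpl49 had 16.1, 16.8 and 11.2 CPM in KO doxorubicin, against 14.8, 15.3 and 14.1 CPM in KO mock, and 13.2, 9.02 and 8.96 CPM in WT doxorubicin, against 14.4, 12.8 and 14.5 CPM in WT mock. Treated and mock libraries of both genes overlapped in each genotype. The intervals for Mrps16, Mrpl28 and Mrpl41 include both 0 and differences as large as those between genotypes given above.

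Mitoribosomal proteins and factors outside the name pattern gave the surroundings of these genes. Of 7 further mitoribosomal proteins, Dap3, the GTP-binding protein of the small subunit, fell by 0.39 on the log2 scale in KO (limma adjusted p = 0.0403) and by 0.62 in WT (0.00308), and Aurkaip1 (0.35) and Mrpl57 (0.52) rose in KO. Of 13 translation factors, 1 rose and 1 fell in KO, and 2 rose and 3 fell in WT. Tufm, the elongation factor that delivers transfer RNAs, rose by 0.50 in KO (0.00636) and 0.45 in WT (0.00787), and Guf1, a back-translocating GTPase, fell by 1.06 in KO (0.00591) and 1.52 in WT (0.000463). Oxa1l, the membrane insertase to which the ribosome binds, fell by 0.82 in WT (0.00259). Of 24 assembly and RNA modification factors, 1 rose and 0 fell in KO, and 4 rose and 2 fell in WT. Mpv17l2, an inner membrane protein of ribosome assembly, rose by 0.95 in KO (0.00470) and 1.06 in WT (0.00158), Noa1, a GTPase, by 1.12 in WT (0.00635), and Rbfa, which binds the small subunit during maturation, fell by 0.65 in WT (0.00893).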

How the data were processed

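RNA was sequenced from 12 MEF libraries in 4 groups. The authors deposited CPM per gene, with doxorubicin and mock libraries in separate tables. A stranded mRNA kit was used, per the labels' protocols. NCBIM37, TopHat2 2.0.6, HTSeq and edgeR are listed, without roles, per the submitters' processing notes. Within each library the CPM values were whole multiples of 1 read over a single total (tolerance 0.001 of a read), which gave that total and puts both tables on a common scale. Genes were matched by symbol to RefSeq and GENCODE annotation of GRCm38, which differs from NCBIM37, so coordinates are given only for promoter windows of GRCm38.p6.

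Differences were fitted across all genes on log2(CPM + 1) by a moderated linear model with a mean trend (limma 3.58.1, R 4.3.3) and Benjamini-Hochberg adjustment at 0.05 over all genes. Folds of low genes are understated on that scale. The genotypes were compared inside each table (6 libraries). Doxorubicin against mock and the interaction were fitted over all 12 libraries in 4 groups and the 10292 genes of both tables. Scripts were tested on simulated data.

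WT and KO share replicate numbers in the labels. Deviations of same-numbered KO and WT libraries from their group means correlated at 0.668 to 0.781 after doxorubicin and at 0.712 to 0.856 in mock, and those of the same genotype across treatments at 0.394 to 0.728. Every pair was above 0.1, so the numbers were taken to pair the libraries. The replicate number as a block was an alternative fit.

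Members, lists and tests were chosen with earlier results of these data known. Described with their values were genes called between genotypes with or without the block, the 5 largest differences of each comparison, the 10 largest called doxorubicin changes each way, the 3 highest and 3 lowest levels per coding length, the S18 paralogues and up to 4 called genes of other lists. Other alternatives were pseudocounts of 0.5 and 2 CPM, a minimum mean of 5 CPM, quantile normalization, median centring, other sets of libraries and leaving out libraries or pairs. Count models were not used on CPM.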

Additional observations from a re-analysis of the deposited data

How the results depend on the processing

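Of 976 values of named genes under an alternative, 885 kept their direction and their side of the threshold, 62 lost the call, 29 gained it and 0 changed direction. With the replicate block the calls were 0 in KO against WT mock, 10 in KO against WT doxorubicin (1, 7 and 5 without pair 1, 2 and 3), 30 in KO and 40 in WT for doxorubicin against mock, and 0 for the interaction. In KO against WT mock the blocked count was 0 to 6 with a pair left out. A blocked fit over all 12 libraries, chosen after seeing the data, gave 6 calls in KO against WT doxorubicin. Leaving out single libraries gave 10 to 21 calls for doxorubicin against mock in KO and 12 to 25 in WT. Fitting WT alone gave 15. Shares of all genes are not given for fits with libraries or pairs left out, WT alone or the blocked 12-library fit. The median difference in KO against WT mock was 0.025 with quantile normalization and 0.035 with median centring, and that of doxorubicin against mock in WT was -0.027 and -0.037. The cause was not tested. Of 177 values for counts and medians, 158 stayed within 1.5 times the reported count or, for medians, within 1 SD between replicates. That spread is as large as some of the medians. Some of these values could not move: the block leaves each median as it is. Leaving out a library of the other genotype does not change a doxorubicin difference, also among the 976 values. Counts of 0 that stayed 0 are included too, so these totals do not measure robustness. Leaving out single libraries gave medians of 0.06 to 0.22 for doxorubicin in KO and 0.014 to 0.14 in WT. The 2 pseudocounts and the filter on low means moved none of these counts by over 1.5 times. Tests on recovered counts, listed as alternatives, were not run, because the tables hold CPM. With 3 libraries a group, differences of the size seen between genotypes rest on few degrees of freedom, above all with the block.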

Other observations

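The 17 mitochondrial aminoacyl-tRNA synthetases, which load the transfer RNAs that the mitoribosome uses, moved in both directions with doxorubicin, with 1 that rose and 2 that fell in KO and 1 that rose and 4 that fell in WT. Cars2 rose by 1.00 on the log2 scale in KO (limma adjusted p = 0.0137) and by 1.47 in WT (0.00109). Tars2 fell by 0.34 in KO (0.0498) and by 0.58 in WT (0.00237), and Vars2 fell by 1.03 in WT (0.00834). Of 12 genes of mitochondrial transcription and RNA stability, Polrmt, the mitochondrial RNA polymerase, rose by 0.85 in KO (0.00186) and by 1.27 in WT (1.00e-04), and Trmt10c rose by 0.67 in WT (0.0136).

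Among 9 regulators of nuclear genes for mitochondrial proteins, Esrra, an orphan nuclear receptor, rose by 0.87 in KO (limma adjusted p = 0.00115) and by 0.86 in WT (0.000651), and Yy1 rose by 0.29 in KO (0.0285) and by 0.42 in WT (0.00325). Pprc1, a coactivator related to PGC-1, fell by 0.36 in KO (0.0200) and by 0.60 in WT (0.000837), and Nrf1 fell by 0.51 in WT (0.0257). Of the 66 genes with a promoter window, the ETS motif was in 4 of 13 that rose in KO, 1 of 2 that fell and 18 of 51 that did not pass. In WT it was in 4 of 15 that rose, 3 of 6 that fell and 16 of 45 that did not pass. The YY1 motif was in 2 of the 13, 1 of the 2 and 17 of the 51 in KO, and in 2 of the 15, 2 of the 6 and 16 of the 45 in WT. These counts are a description and were not tested.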
